A study of Homo sapiens with 4 samples.

Results

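The annexin family was examined in RNA-seq libraries of PANC-1 cells, an established human cell line from a carcinoma of the pancreatic duct. The members were the genes with the symbols ANXA1, ANXA2, ANXA3, ANXA4, ANXA5, ANXA6, ANXA7, ANXA8, ANXA9 and ANXA11, which were 10 of the 16878 genes in the expression tables. The rule names the genes by symbol and uses no expression value, although earlier results of these data were known when it was written. The study asked how the deacetylase SIRT1 governs gene expression in pancreatic cancer cells, and the libraries compared cells with and without SIRT1 depletion. There were 2 Control libraries and 2 siSIRT1 libraries, the latter from cells given a small interfering RNA (siRNA) against SIRT1, and both groups were harvested 48 h after transfection. The labels name no other treatment or genetic change in either group, and what the Control cells were given is not described further in the labels. No label says whether the replicates were separate cultures, so the p-values below measure only the spread between these libraries.

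Annexins are proteins that bind phospholipid membranes when calcium rises. They share a folded core made of repeats and differ in an amino-terminal tail, through which several of them bind small calcium-binding proteins of the S100 and penta-EF-hand families. They take part in membrane repair, in endocytosis and exocytosis, in plasminogen activation at the cell surface (ANXA2) and in the damping of inflammation (ANXA1), and ANXA1 and ANXA2 are widely studied in carcinomas of the pancreas.

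The siRNA sequence is shown because the comparisons below rest on SIRT1 depletion. The study lists 1 siRNA named siSIRT1, and that these libraries used it is taken from the shared name. It is written here as the strand that reads like the mRNA, with capitals marking the bases that matched SIRT1.
siSIRT1: GUGUCAUGGUUCCUUUGCA
All 19 bases matched 4 of 6 annotated SIRT1 transcripts. On GRCh37 the target spans a splice junction in the coding sequence, with 8 bases at chr10:69666687-69666694 in exon 5 of 9 and 11 bases at chr10:69667803-69667813 in exon 6, on the plus strand. No annotated transcript of the 10 annexin genes held the sequence in full in either orientation, and the longest run shared with the mRNA strand of any of them was 9 bases, in ANXA5.

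The promoters of 3 members are shown because ANXA1 and ANXA6 had the largest differences on the log2(FPKM + 1) scale used below and ANXA2 was the most abundant member. Each sequence runs from 250 bases before to 50 bases after a RefSeq transcription start (GRCh38.p14), 5′ to 3′ along the gene. Capitals mark matches on either strand to 5 motifs. These were TATAAA for the TATA box, the promoter motif CCAAT, the motif GGGCGG of the GC box, the AP-1 motif TGAGTCA and the E-box motif CACGTG.
ANXA1, chr9:73151615-73151914, plus strand: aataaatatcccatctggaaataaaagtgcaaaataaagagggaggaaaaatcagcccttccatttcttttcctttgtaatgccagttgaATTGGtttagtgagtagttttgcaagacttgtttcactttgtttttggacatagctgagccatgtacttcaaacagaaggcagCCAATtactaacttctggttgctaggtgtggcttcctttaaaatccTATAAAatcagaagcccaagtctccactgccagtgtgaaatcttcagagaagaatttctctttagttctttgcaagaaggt
ANXA6, chr5:151157730-151158029, minus strand: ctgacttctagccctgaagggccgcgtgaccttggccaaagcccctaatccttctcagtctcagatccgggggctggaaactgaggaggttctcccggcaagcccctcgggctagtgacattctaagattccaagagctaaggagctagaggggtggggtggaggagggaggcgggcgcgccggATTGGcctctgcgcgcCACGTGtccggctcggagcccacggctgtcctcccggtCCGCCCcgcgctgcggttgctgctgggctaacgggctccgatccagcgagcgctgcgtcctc
ANXA2, chr15:60397937-60398236, minus strand: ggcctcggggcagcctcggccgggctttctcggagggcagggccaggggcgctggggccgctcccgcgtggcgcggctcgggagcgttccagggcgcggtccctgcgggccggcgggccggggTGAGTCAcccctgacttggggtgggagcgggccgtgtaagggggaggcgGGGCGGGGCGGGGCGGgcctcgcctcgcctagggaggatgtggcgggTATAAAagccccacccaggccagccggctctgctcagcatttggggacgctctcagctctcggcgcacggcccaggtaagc
The 3 windows differed widely in base composition. GC content was 37.7% for ANXA1, 66.3% for ANXA6 and 76% for ANXA2, against a median of 58.7% over all 35116 promoters in the RefSeq table. The ANXA1 window held TATAAA beginning 31 bases before the start and CCAAT at 77 bases and, on the opposite strand, at 160 bases. The ANXA2 window also held TATAAA at 31 bases, together with a run of 3 overlapping GGGCGG matches at 78, 73 and 68 bases and TGAGTCA at 127 bases. The ANXA6 window held no TATAAA but had CACGTG at 50 bases and, both on the opposite strand, CCAAT at 66 bases and GGGCGG at 12 bases. ANXA6 has another listed start with a window of 56.3% GC and none of the 5 motifs.

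In all, 9 of the 10 members had 13 promoter windows, and ANXA8 had none in the table. TATAAA was found in 3 of these 13 windows and in 11.5% of all promoters, and CCAAT in 4 and in 34.6%. GGGCGG was found in 7 and in 45.0% of all promoters, TGAGTCA in 1 and in 4.95%, and CACGTG in 2 and in 7.26%. The matches were not particular to the 3 genes shown, since ANXA7 and ANXA11 windows also held CCAAT and an ANXA11 window held TATAAA. They describe letters in a window and were not tested as binding sites.

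Levels are in FPKM, a unit that divides fragments by transcript length and by the size of the library and so allows levels of different genes to be set side by side. Differences, always siSIRT1 minus Control, were computed after taking log2(FPKM + 1) and come from a limma fit over the 12191 genes that averaged 1 FPKM or more, with p-values adjusted by the Benjamini-Hochberg method and a threshold of 0.05. SIRT1 itself measured 10.46 and 10.25 FPKM in Control, against 1.80 and 2.05 after depletion. It fell by 1.96 on the log2 scale (SE 0.11, adjusted p = 1.33e-05), so the targeted transcript was lower in both libraries labelled siSIRT1. The depth behind the values, estimated from the steps between low FPKM values, was about 8700000 to 9120000 reads per library. The epithelial keratins KRT8, KRT18 and KRT19 were at 312.82 FPKM or more in every library, whereas KRT7 stayed at 4.04 FPKM or less and EPCAM at 11.21 or less. Markers of other cells were low. Of 10 such genes 7 were measured, their summed level was 1.99 and 2.10 FPKM in Control against 1.72 and 2.02 in siSIRT1, and most of it was PTPRC.

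After SIRT1 depletion ANXA1 and ANXA6 transcripts had the largest rises on the log2(FPKM + 1) scale, and ANXA7 transcripts fell. The weakly expressed ANXA3 had a larger ratio of means (1.91) than ANXA6 (1.73). Of the 9 members tested, 5 rose (ANXA1, ANXA3, ANXA4, ANXA6 and ANXA11), 1 fell (ANXA7) and 3 did not pass the test (ANXA2, ANXA5 and ANXA9). ANXA3 reached the expression minimum only through its siSIRT1 values, so its place in this count is no independent evidence. ANXA8 was listed at 0 in every library. Over all genes tested 37.1% passed the test, 24% as higher and 13.1% as lower, so changes were common throughout the transcriptome. The libraries of the 2 groups did not overlap for 8 of the 9 members tested, and for 69% of all genes tested. The median log2 fold change was 0.20 over the 9 members and 0.07 over all genes tested. In bulk RNA, more transcripts per cell and more cells that carry them cannot be told apart.

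Only the rises of ANXA1 and ANXA6 passed the test under each of the 8 alternative settings tried and with each library left out. The calls of ANXA4 and ANXA11 were lost under each of the 4 scalings tried. That of ANXA7 was kept under them and lost under other settings. The same held for ANXA3. This lends its rise no support, since ANXA3 reached the expression minimum only through its siSIRT1 values. Among all genes that passed, 64.8% were higher with the FPKM as deposited, 53.3% after quantile normalization, 52.1% after upper-quartile scaling and 50.2% after median-of-ratios scaling. With 2 libraries a group an exact permutation test of a single gene cannot give a two-sided p below 0.333, so the calls rest on the spread shared across genes in the limma fit.

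**Figure D1:**
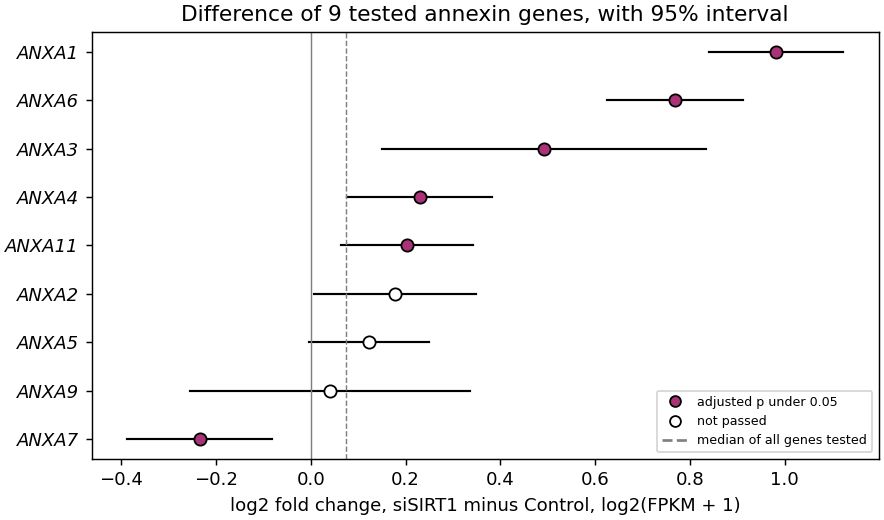
Log2 fold change of the 9 tested annexin genes (horizontal axis, siSIRT1 minus Control on the log2(FPKM + 1) scale) with bars for the 95% interval of the limma fit on 2 against 2 libraries. Filled points passed the adjusted p threshold of 0.05 and the dashed line is the median of all genes, 0.07. The points of ANXA1 and ANXA6 lie furthest to the right, although the interval of ANXA3 overlaps that of ANXA6. The point of ANXA7 alone is below 0.

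In Control cells the family was dominated by ANXA2. Its mean level of 1495 ± 19.2 FPKM (SD, n = 2) placed it 17th of all 16878 genes. ANXA5 followed at 167 ± 2.01 FPKM and ANXA11 at 101 ± 4.11 FPKM. The next 3 members lay close together, with ANXA4 at 40.7 ± 1.18, ANXA1 at 38.6 ± 0.997 and ANXA7 at 37.3 ± 0.460 FPKM. ANXA6 was at 26.4 ± 0.262 FPKM, ANXA9 at 2.94 ± 0.0707, ANXA3 at 0.83 ± 0.0424 and ANXA8 at 0.

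The order was the same in each Control library alone, and no neighbours in it had ranges that overlapped. Among the 7 most abundant members the narrowest gaps between means were 1.34 FPKM between ANXA1 and ANXA7 and 2.11 FPKM between ANXA4 and ANXA1. Each gap rests on only 2 values a gene. In Control replicate 1 the 95% Poisson intervals for counting error were 37.4 to 42.6 FPKM for ANXA4, 35.8 to 43.1 for ANXA1 and 34.4 to 39.6 for ANXA7. They overlapped, so the order of these members lies within counting error. In the siSIRT1 libraries 6 of the 10 members kept their rank. ANXA1 moved from rank 5 to rank 4, above ANXA4, and ANXA6 moved from rank 7 to rank 6, above ANXA7. ANXA2 made up 78.4% and 78.2% of the summed annexin FPKM in Control and 77.3% and 76.7% in siSIRT1. The family as a whole took 0.478% and 0.477% of all FPKM in Control and 0.526% and 0.527% in siSIRT1. By this measure the siSIRT1 libraries were higher. A share does not depend on scaling of whole libraries, but it does depend on the levels of other abundant genes. Most of the family sum was ANXA2, whose own difference did not pass the test.

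**Figure D2:**
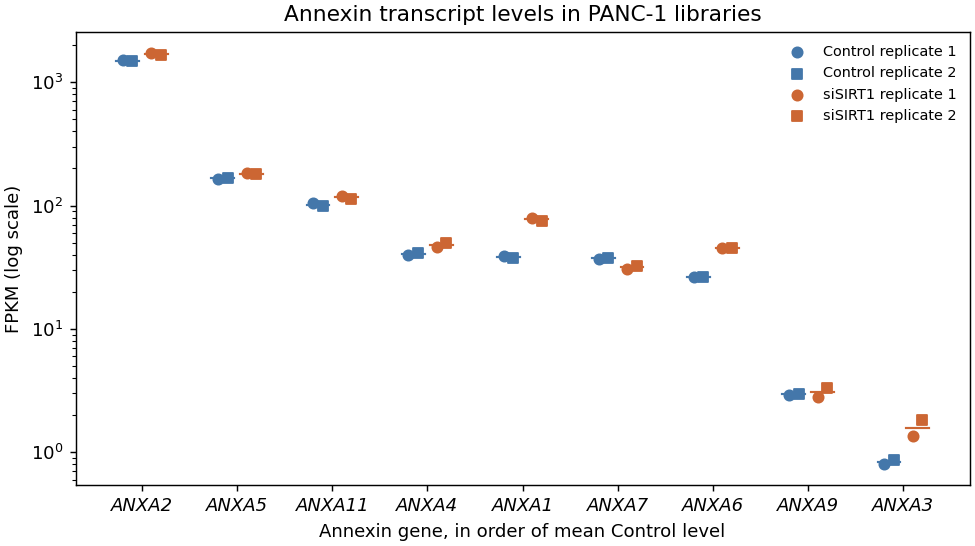
FPKM (vertical axis, log scale) of the 9 annexin genes with a value above 0, ordered by mean Control level. Blue marks are the 2 Control libraries, orange marks the 2 siSIRT1 libraries, circles replicate 1, squares replicate 2 and short lines the group means. ANXA2 stands about an order of magnitude above ANXA5, and the siSIRT1 marks of ANXA1 and ANXA6 sit well above their Control marks.

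ANXA1, the glucocorticoid-regulated annexin that signals through formyl peptide receptors, had the largest rise. Its levels were 39.31 and 37.9 FPKM in Control against 79.11 and 75.25 in siSIRT1. Both siSIRT1 libraries were clearly above both Control libraries. The means of 38.6 ± 0.997 and 77.2 ± 2.73 FPKM (SD, n = 2) gave a ratio of 2.00 and a log2 fold change of 0.98 (SE 0.06, 95% interval 0.84 to 1.12, limma adjusted p = 1.90e-05). The adjusted p ranged from 3.52e-09 to 0.00415 over the alternative settings. The Control values rested on about 465 and 457 reads, those of siSIRT1 on about 909 and 906. ANXA1 has 13 exons and lies at chr9:75766781-75785309 on the plus strand (GRCh37).

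The 3 genes outside the family whose profiles over the 4 libraries lay nearest to that of ANXA1 were CSRP1, CDK2AP1 and MANF, at Euclidean distances of 0.21, 0.23 and 0.31 on the log2 scale. CSRP1, an actin-associated LIM protein, was at 43.07 and 41.83 FPKM in Control against 77.24 and 70.46 in siSIRT1. It thus matched ANXA1 in level as well as in the size of the difference, as the distance requires. For ANXA2 the nearest were KRT18 and RPS2, both at 0.19, and FBL at 0.30.

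ANXA6, whose core is a duplication of the annexin core and which links membranes to the cytoskeleton and to endosomes, showed the other large rise. It was at 26.21 and 26.58 FPKM in Control against 45.61 and 45.68 in siSIRT1. The replicates of each group were nearly identical and the groups lay far apart. The level was 72.9% higher in siSIRT1, a log2 fold change of 0.77 (SE 0.06, 95% interval 0.62 to 0.91, limma adjusted p = 6.73e-05). The adjusted p ranged from 1.43e-07 to 0.00470 over the alternative settings. ANXA6 has 26 exons, the most of any member, and lies at chr5:150480267-150537376 on the minus strand (GRCh37).

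ANXA2, which forms a complex with S100A10 and serves as a docking site for plasminogen and its activator, was the most abundant member but did not pass the test. Its levels were 1508.64 and 1481.52 FPKM in Control against 1732.07 and 1650.75 in siSIRT1. The siSIRT1 libraries were both above the Control libraries, by 13.1% in the mean. On the log2 scale the difference was 0.18 (SE 0.07, 95% interval 0.01 to 0.35, limma adjusted p = 0.0954). It passed after quantile normalization (adjusted p = 0.00100), after scaling to equal sums (0.0282) and without siSIRT1 replicate 2 (0.0165), and it had an adjusted p of 0.513 after median-of-ratios scaling. The gene lies at chr15:60639333-60695082 on the minus strand (GRCh37). Processed copies share much of its sequence, with 98.4% identity over 1020 bases for ANXA2P2, and how reads common to both were assigned is not stated.

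The ratio of ANXA1 to ANXA2 within a library went from 0.0261 and 0.0256 in Control to 0.0457 and 0.0456 in siSIRT1. A ratio within a library is free of scaling between libraries, and its replicates differed by far less than the groups did.

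ANXA5, the phosphatidylserine-binding annexin used as a probe of dying cells, was at 165.27 and 168.11 FPKM in Control against 183.5 and 179.81 in siSIRT1. The groups did not overlap, but the difference of 9.0% did not pass the test. Its log2 fold change was 0.12 (SE 0.06, 95% interval -0.0038 to 0.25, limma adjusted p = 0.116), and it passed under no alternative setting.

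ANXA4, an annexin prominent in secretory epithelia, rose. It was at 39.88 and 41.55 FPKM in Control against 46.14 and 49.74 in siSIRT1. The siSIRT1 libraries were both higher, with the wider spread. The log2 fold change was 0.23 (SE 0.07, 95% interval 0.08 to 0.38, limma adjusted p = 0.0263). The call was lost after quantile (adjusted p = 0.125), median-of-ratios (0.134) and upper-quartile scaling (0.111), at equal sums (0.108), and without Control replicate 1 (0.212), Control replicate 2 (0.109) or siSIRT1 replicate 2 (0.0685).

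ANXA11, which binds PDCD6 and S100A6 and tethers RNA granules to lysosomes, also rose. Its levels were 104.09 and 98.28 FPKM in Control against 119.52 and 113.82 in siSIRT1. The groups were separate, with like spread in both. The log2 fold change was 0.20 (SE 0.06, 95% interval 0.06 to 0.34, limma adjusted p = 0.0297). The call was lost after quantile (adjusted p = 0.0561), median-of-ratios (0.233) and upper-quartile scaling (0.148), at equal sums (0.0540), and without Control replicate 1 (0.118), Control replicate 2 (0.316) or siSIRT1 replicate 1 (0.0667).

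ANXA7, known as synexin for its part in the fusion of secretory granules, was the member that fell. It was at 36.94 and 37.59 FPKM in Control against 30.51 and 32.61 in siSIRT1. Both siSIRT1 libraries were below both Control libraries. Its log2 fold change was -0.23 (SE 0.07, 95% interval -0.39 to -0.08, limma adjusted p = 0.0248), a mean level lower by 15.3%. The fall passed the test under every scaling, with an adjusted p of 0.00849 after median-of-ratios scaling. It was lost without the mean-variance trend (0.0745) and without Control replicate 1 (0.133), Control replicate 2 (0.182) or siSIRT1 replicate 1 (0.0611). ANXA7 lies at chr10:75134859-75173834 on the minus strand (GRCh37).

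ANXA3, an annexin abundant in neutrophils, rose from a level near the limit of these libraries. It was at 0.80 and 0.86 FPKM in Control against 1.35 and 1.82 in siSIRT1. The groups did not overlap, but both Control values were under the expression minimum. The Control values rested on about 10 and 11 reads, those of siSIRT1 on about 16 and 22. The 95% Poisson intervals for counting error, 0.396 to 1.52 and 0.445 to 1.60 FPKM in Control and 0.778 to 2.21 and 1.12 to 2.70 FPKM in siSIRT1, overlapped. On the log2 scale the difference was 0.49 (SE 0.15, 95% interval 0.15 to 0.83, limma adjusted p = 0.0317), and 0.84 with a pseudocount of 0.1. The call was lost without Control replicate 1 (0.130), Control replicate 2 (0.0999) or siSIRT1 replicate 2 (0.114).

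ANXA9, an annexin whose core has lost its calcium-binding sites, was at 2.89 and 2.99 FPKM in Control against 2.78 and 3.34 in siSIRT1. The groups overlapped, with the siSIRT1 libraries on both sides of Control. The log2 fold change was 0.04 (SE 0.13, 95% interval -0.26 to 0.34, limma adjusted p = 0.835), and its sign turned after median-of-ratios, upper-quartile and equal-sum scaling. The interval is wide, so a change of a size like that of ANXA4 was not detectable at about 36 to 45 reads per library.

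ANXA8 was listed at 0 in all 4 libraries, where 3 reads would have given 0.170 to 0.178 FPKM. Its copy ANXA8L1 was listed at 0.25 and 0 FPKM in Control against 0.69 and 0.45 in siSIRT1. The transcripts are 99.9% identical over the 1954 bases of the copy, so the split of reads between the genes is uncertain and the 0 of ANXA8 cannot be read as absence. ANXA10, ANXA13 and ANXA8L2 were not listed under these symbols and so were not analysed here.

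**Figure D3:**
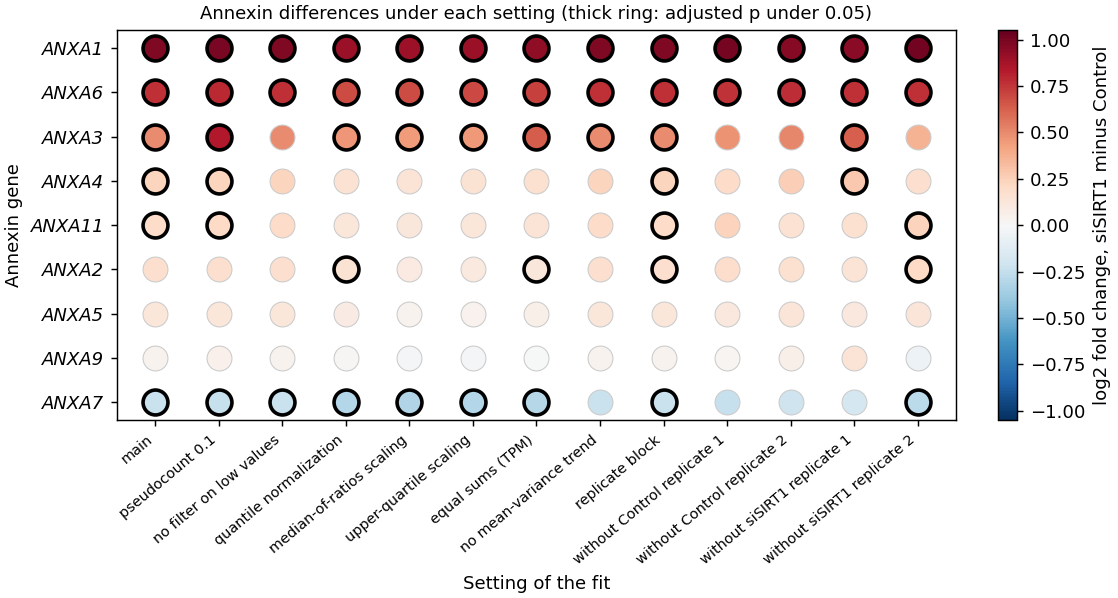
Log2 fold change (color, siSIRT1 minus Control) of the 9 tested annexin genes (vertical axis) under each setting of the limma fit (horizontal axis). A thick ring marks an adjusted p under 0.05. The rings of ANXA1 and ANXA6 are unbroken over all settings, and those of ANXA4 and ANXA11 are missing under each of the 4 scalings.

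Transcripts of the proteins that annexins bind did not move as a block. Of 8 partners measured and tested, 3 rose, 3 fell and 2 did not pass the test. The share called among all genes tested was 37.1%, with 24% higher and 13.1% lower. The partners had a median difference of 0.05 on the log2 scale, beside 0.07 for all genes tested. The lists of related genes used from here on were compiled with earlier results of these data known. S100A10, the light chain of the ANXA2 complex, was at 192.1 and 195.46 FPKM in Control against 350.77 and 305.03 in siSIRT1. It rose by 0.75 on the log2 scale (SE 0.07, limma adjusted p = 0.000168). The ratio of ANXA2 to S100A10 within a library was therefore 7.85 and 7.58 in Control and 4.94 and 5.41 in siSIRT1, with no overlap.

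S100A11, which binds the tail of ANXA1, was at 341.21 and 343.28 FPKM in Control against 613.17 and 519.84 in siSIRT1. It rose by 0.72 on the log2 scale (SE 0.08, limma adjusted p = 0.000334). The ratio of ANXA1 to S100A11 was 0.115 and 0.110 in Control against 0.129 and 0.145 in siSIRT1. The penta-EF-hand protein SRI (sorcin), a partner of ANXA7, rose by 0.40 (adjusted p = 0.00746), opposite in direction to ANXA7. The SRI call was lost without Control replicate 2, and also without a filter on low values (limma adjusted p = 0.0518).

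S100A4, a motility-linked partner of ANXA2, fell by 0.68 on the log2 scale (limma adjusted p = 0.000105), from 191.6 and 184.74 FPKM in Control to 121.1 and 113.13 FPKM in siSIRT1. AHNAK, a giant scaffold held at the membrane by ANXA2 and S100A10, fell by 0.64 (adjusted p = 0.00265), with siSIRT1 values of 150.38 and 198.15 FPKM that differed more than those of most genes here. S100A1 fell by 0.52 (adjusted p = 0.0205), a call lost without Control replicate 2 or siSIRT1 replicate 1. The S100A1 call was also lost without a filter on low values (0.0892). The partners of ANXA11, S100A6 and PDCD6, had log2 fold changes of -0.05 and 0.16 and did not pass (adjusted p = 0.629 and 0.0713).

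In the plasminogen system, for which ANXA2 is a surface receptor, 3 of 7 genes described here were expressed highly enough to be tested. Of these 1 fell, beside the 13.1% called lower over all genes tested. PLAU, the urokinase activator, was at 187.67 and 184.22 FPKM in Control against 115.52 and 113.12 in siSIRT1 (log2 fold change -0.70, limma adjusted p = 6.07e-05). The fall of PLAU held under every alternative setting and with each library left out. The receptors PLAUR and PLGRKT had log2 fold changes of 0.10 and -0.10 and did not pass (adjusted p = 0.598 and 0.558). ANXA2R, named as a receptor for ANXA2, was at 4.94 and 3.69 FPKM in Control against 4.52 and 3.83 in siSIRT1, and its groups overlapped.

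Of 13 membrane repair genes tested, 5 rose, 3 fell and 5 did not pass, with a median log2 fold change of 0.08. Beside them, 37.1% of all genes tested were called, 24% as higher and 13.1% as lower. The calpain subunit CAPN1, a protease activated at wounds, rose by 0.47 (limma adjusted p = 0.000394). The ESCRT genes CHMP4B and VPS4A, which cut away damaged membrane, rose by 0.47 and 0.52 (adjusted p = 0.00114 and 0.00179), and their adaptor PDCD6IP rose by 0.37 (adjusted p = 0.00782), a call lost without Control replicate 1 (0.0631). CAV1 rose by 0.20 (adjusted p = 0.0422) but passed under only 2 of the 8 alternative settings and with 1 of the 4 libraries left out. Among the genes that fell, the ferlin MYOF was lower by 28.0% (log2 fold change -0.47, adjusted p = 0.00170). The membrane-shaping ATPases EHD1 and EHD2 had log2 fold changes of -0.27 and -0.19 (adjusted p = 0.00929 and 0.0456). Without Control replicate 1 or Control replicate 2 the calls of both were lost, and that of EHD2 also without siSIRT1 replicate 2. Both were lost without the mean-variance trend (limma adjusted p = 0.0519 and 0.133), and that of EHD2 without a filter on low values (0.0894).

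Genes that set phosphatidylserine exposure, the lipid signal read by ANXA5, were called about as often as all genes. Of 8 tested, 1 rose, 2 fell and 5 did not pass, beside the 37.1% called over all genes. The scramblase XKR8 rose by 0.62 (limma adjusted p = 0.00339), from 7.94 and 6.91 FPKM in Control to 12.92 and 10.94 FPKM in siSIRT1. ANO6, the calcium-activated scramblase, and PLSCR3 had log2 fold changes of -0.33 and -0.29 (adjusted p = 0.0466 and 0.0325). Each of the latter calls was lost when either Control library was left out. Each was also lost without 1 siSIRT1 library (replicate 1 for ANO6, replicate 2 for PLSCR3). Without a filter on low values (limma adjusted p = 0.170 and 0.109) or without the mean-variance trend (0.112 and 0.0829) neither passed.

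Of the genes around ANXA1 signaling, the 3 expressed highly enough to be tested did not pass. The glucocorticoid receptor gene NR3C1 was at 9.18 and 9.77 FPKM in Control against 9.07 and 11.52 in siSIRT1. TSC22D3 (GILZ), like ANXA1 a textbook glucocorticoid target, was at 15.4 and 13.72 FPKM in Control against 15.75 and 11.9 in siSIRT1. Both overlapped between groups, with log2 fold changes of 0.10 (95% interval -0.17 to 0.37, limma adjusted p = 0.545) and -0.08 (-0.37 to 0.21, adjusted p = 0.658). Whether glucocorticoid signaling relates to the ANXA1 rise was not tested. TRPM7, a kinase that phosphorylates ANXA1, also did not pass (adjusted p = 0.932). The formyl peptide receptors FPR1 and FPR3 were at 0.09 FPKM or less in every library and were not tested. No gene with the symbol FPR2 was listed.

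The ductal epithelial markers are given as a comparison, since several annexins are epithelial genes. KRT18 and KRT19 rose by 0.26 and 0.25 (limma adjusted p = 0.0350 and 0.0178), and KRT8, KRT7 and EPCAM did not pass. Both keratin calls were lost after upper-quartile scaling and after median-of-ratios scaling (limma adjusted p = 0.244 for KRT18 and 0.159 for KRT19 in the latter). Both were also lost without a filter on low values, without the mean-variance trend, and without Control replicate 1 or Control replicate 2. Their differences were close in size to those of ANXA4 and ANXA11.

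**Figure D4:**
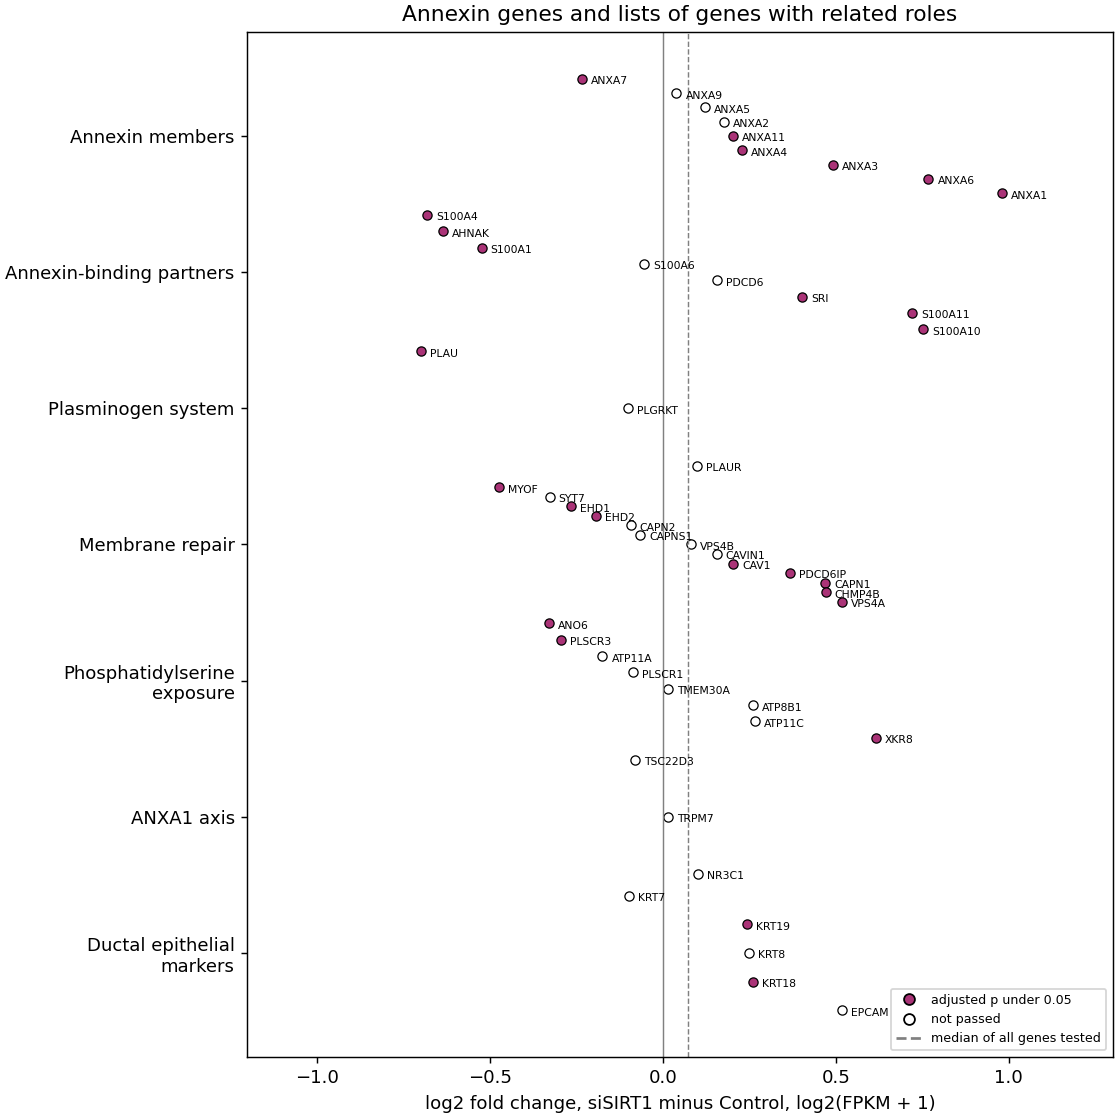
Log2 fold change (horizontal axis, siSIRT1 minus Control on the log2(FPKM + 1) scale) of each tested annexin and of the tested genes of 6 lists with related roles. Filled points passed the adjusted p threshold of 0.05 and the dashed line is the median of all genes, 0.07. S100A10 and S100A11 lie at about the fold change of ANXA6, whereas S100A4, AHNAK and PLAU lie on the other side of 0.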

How the data were processed

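RNA-seq was performed on 4 PANC-1 libraries, grouped by their labels. The authors deposited FPKM values per gene, 1 table per library, rounded to 2 decimals. The submitters' processing notes name Bowtie2, HISAT, RSEM and ChIPseeker without roles. The genome build, the annotation and the assignment of reads shared by similar genes are not given in the sources used here. FPKM depends on each library's total, so abundant genes that change shift all others.

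Values were transformed to log2(FPKM + 1), and genes averaging 1 FPKM or more were tested with limma 3.58.1 in R 4.3.3 (lmFit, then eBayes with its trend option). P-values were two-sided and adjusted over all 12191 genes. The pseudocount understates changes of weakly expressed genes. Alternatives were a pseudocount of 0.1, no filter, 4 scalings, no trend, the replicate number as a block and leaving out each library. Read depth was estimated from single-exon genes, and reads per gene from GENCODE 44 canonical transcript lengths, so both are approximate. Intervals on reads cover counting error only. Gene positions are GENCODE 44 on GRCh37, and promoters are RefSeq on GRCh38.p14. All members, SIRT1, the genes of 8 lists and the 3 nearest genes to ANXA1 and ANXA2 were eligible to be named. An item of 1 list is not reported here. Members and lists were chosen with earlier results of these data known.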

Additional observations from a re-analysis of the deposited data

How the results depend on the processing

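The members that passed the test numbered 6 with the reported fit, 3 without a filter on low values, 3 without the mean-variance trend and 2 to 5 with 1 library left out. Over all genes, 4521 passed, and 2710 to 4582 with 1 library left out, the fewest without Control replicate 2 (2710) and Control replicate 1 (2808). ANXA9 turned in sign, to log2 fold changes of -0.023 (median-of-ratios), -0.018 (upper quartile), -0.0081 (equal sums) and -0.060 (without siSIRT1 replicate 2, the lowest of -0.060 to 0.14 with 1 library left out), and passed under no setting. Ranked by siSIRT1 level, 6 of the 10 members kept their Control rank. The sign of the other 8 tested members held under all settings run. Without a filter the calls of ANXA3 (adjusted p = 0.0553), ANXA4 (0.0591) and ANXA11 (0.0636) were lost, where 16453 genes were tested. Without the trend those of ANXA4 (0.0852), ANXA7 (0.0745) and ANXA11 (0.109) were lost, and the cause was not tested. Where a library was left out, the lone library of its group was assumed to vary like the other group.

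The shared replicate numbers are not stated to mark a common culture or day, and with 2 pairs they do not establish a pairing (the correlation of same-numbered deviations was 0.123). Under a replicate block 5393 genes and 7 members passed, the added member being ANXA2 (adjusted p = 0.0143). A depth of about 8700000 to 9120000 reads limits ANXA3, ANXA8 and ANXA9 most.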
